A study of Mus musculus with 6 samples.

Results

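The 10 genes described here carry dietary fatty acids into the enterocyte and turn them into triglyceride: *Cd36*, *Slc27a4*, *Fabp1*, *Fabp2*, *Acsl5*, *Mogat2*, *Dgat1*, *Dgat2*, *Plin2* and *Plin3*. They were taken by gene symbol from the feature table of the files, where each occurs once among 32285 genes, by a rule that uses no measured value, although earlier results of these data were known when it was written. Their transcripts were counted as unique molecular identifiers (UMIs) in 6 single-cell RNA sequencing libraries of jejunal epithelium from male wild-type C57BL/6J mice about 30 weeks old. All mice had eaten their diet for 16 weeks, then had an operation, were killed 5 weeks later and had been fasted overnight. LFD sham mice ate a low-fat diet and had a sham operation, in which the stomach was only pressed. HFD sham mice ate a high-fat diet and had the same sham operation. HFD VSG mice ate the high-fat diet and had a vertical sleeve gastrectomy (VSG), which removes most of the stomach along its greater curvature. A filter parted crypts from villi in the jejunum of each mouse, each fraction was dissociated on its own, and the cells of the mice of a group were then pooled, 3 mice in each sham group and 2 in the HFD VSG group. Each group thus gave a library labelled crypts and a library labelled villi from the same animals. With 1 library in each group and fraction, no difference could be set against the spread between animals. The intervals given are 95% and cover counting error only, and PCR, dissociation and animal effects lie outside them.

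Absorption of fat begins when long-chain fatty acids and monoacylglycerol cross the brush border. CD36 and FATP4, the product of *Slc27a4*, take part in uptake, FABP1 and FABP2 bind the fatty acids in the cytosol, and ACSL5 joins them to coenzyme A. MOGAT2 and then DGAT1 or DGAT2 attach the acyl groups to monoacylglycerol and diacylglycerol. The triglyceride leaves the cell in chylomicrons or is held for a time in droplets coated by PLIN2 and PLIN3.

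The files held between 7765 and 12012 called barcodes a library, with 60522766 to 155522445 UMIs in them. After filters on genes, mitochondrial UMIs and doublets, 24655 cells were kept, and the libraries shared between 2 and 13 kept barcodes pairwise. Clusters were formed without the 10 genes and named from markers, and 8 of 19 clusters, with 13193 cells, were enterocyte-like. All 12 brush-border markers were raised in these 8. They were raised in clusters 3 and 5 as well, which were left unnamed because markers of another class led there. The fraction labels went against the markers: stem-like, mitotic and Paneth-like cells made up 4.43, 4.79 and 6.93% of the kept cells in the crypt-labelled LFD sham, HFD sham and HFD VSG libraries, but 18.3, 13.2 and 23.1% in the villus-labelled libraries. The libraries are therefore called crypt-labelled and villus-labelled, and only libraries of the same label were compared. The villus-labelled HFD VSG library stood apart. Its enterocyte-like cells had a median of 34841 UMIs against 13821.5 to 17841.5 in the other 5 libraries, and their summed brush-border markers were at 7475 UMIs per 1000000 (CPM) against 18934 to 29841 CPM. Both hold for each value of that library that follows, and their part in its results was not tested.

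Levels are given as CPM, the UMIs of a gene summed over the cells of a class per 1000000 UMIs of those cells. Each UMI comes from the 3′ end of a transcript, so CPM values of this kind do not grow with transcript length. In enterocyte-like cells the 10 genes together took 4.70, 5.74 and 5.24% of all UMIs in the crypt-labelled LFD sham, HFD sham and HFD VSG libraries and 3.86, 4.97 and 4.15% in the villus-labelled ones. *Fabp1* and *Fabp2* alone supplied between 93 and 94.5% of these UMIs. *Acsl5*, with a median of 1245 CPM over the 6 libraries, and *Dgat1*, with 656 CPM, came next, and *Plin2* had the lowest median, 120.1 CPM.

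**Figure D1:**
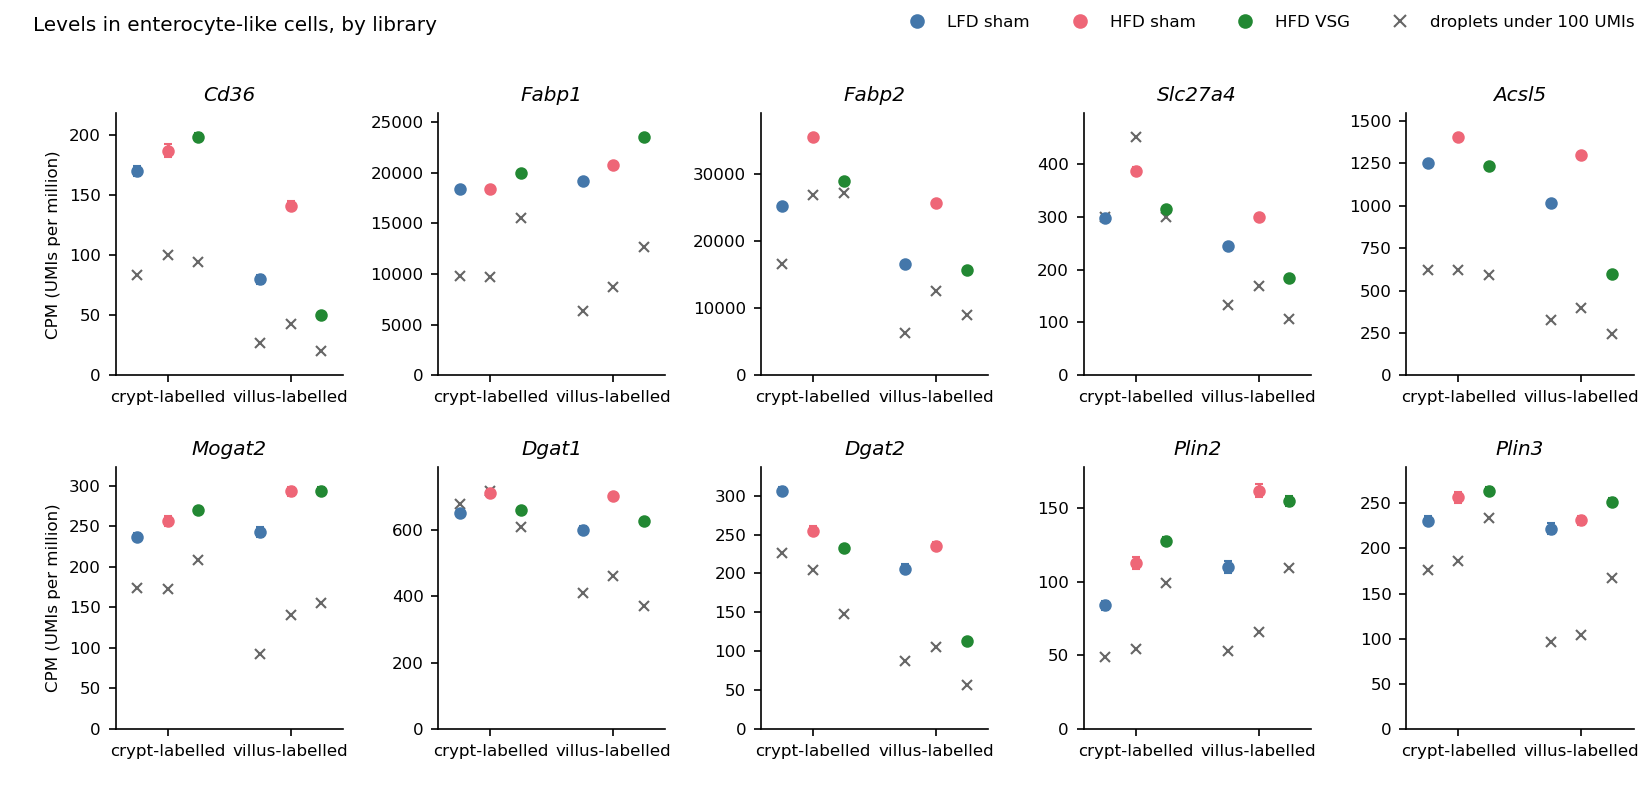
Level of each gene in enterocyte-like cells of the 6 libraries, in CPM on a linear axis from 0; each dot is 1 library, coloured by group, bars are exact 95% Poisson intervals that cover counting error only, and crosses are droplets with fewer than 100 UMIs of the same library. *Cd36* spreads furthest, from 49.9 CPM in the villus-labelled HFD VSG library to 198 CPM in the crypt-labelled one, and the crosses lie below the dots except for *Slc27a4* and *Dgat1* in the crypt-labelled LFD sham and HFD sham libraries.

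Transcription factors of the nuclear receptor family, among them the PPARs and HNF4α, bind DNA at AGGTCA elements, and several of these genes are known PPARα targets in the liver or gut. Promoters from RefSeq on GRCm38.p6, 250 bases before to 50 after the start, were found for 7 of the 10 genes. AGGTCA on either strand was in those of *Cd36*, *Fabp1* and *Plin2* and in 16.3% of all 32851 promoters of that length. Repeats of AGGTCA in one direction with 1 base between were in 0.0396% of promoters, CAAAGTCCA in 0.475% and AGATAA in 11.2%, on either strand, and in none of the 7. The stretches around the match are shown for these 3 genes, since *Cd36* and *Plin2* were beyond log2 0.5 in HFD sham relative to LFD sham in the villus-labelled libraries and *Fabp1* was among the most abundant, 5′ to 3′ on the strand of the gene, with the element in capitals, where it reads as the reverse complement. That of *Cd36* (chr5:17836092-17836146, minus strand) begins 250 bases before a RefSeq start that lies within the annotated gene. That of *Fabp1* (chr6:71199785-71199826, plus strand) begins 94 bases before a RefSeq start that lies 52 bases downstream of the annotated start of the gene. That of *Plin2* (chr4:86670245-86670304, minus strand) begins 245 bases before its RefSeq start.
Cd36: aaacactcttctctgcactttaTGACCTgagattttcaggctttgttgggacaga
Fabp1: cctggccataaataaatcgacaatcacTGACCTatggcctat
Plin2: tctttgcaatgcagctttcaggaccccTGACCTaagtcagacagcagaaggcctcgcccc
The promoter of *Fabp1* holds another match, 9 bases before the RefSeq start and thus within the annotated gene, which is not shown. These matches are letters in a window and show no binding.

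*Cd36* (ENSMUSG00000002944, chromosome 5, 17781690 to 17888801, minus strand, in the mm10 build used for every position here) encodes the scavenger receptor that binds long-chain fatty acids at the cell surface. In the crypt-labelled libraries it stood at 170.1 CPM in LFD sham, 187 CPM in HFD sham and 198 CPM in HFD VSG. The villus-labelled libraries had it at 79.8 CPM in LFD sham, 141 CPM in HFD sham and 49.9 CPM in HFD VSG. The 3 crypt-labelled values thus lay close together and above the villus-labelled ones, whereas the villus-labelled values were spread, with HFD sham highest and HFD VSG lowest. The log2 ratio of HFD sham to LFD sham was 0.82 (0.75 to 0.90) in the villus-labelled libraries, at percentile 98.4 of the 10180 genes measured there, and 0.14 (0.08 to 0.19) in the crypt-labelled libraries. The log2 ratio of HFD VSG to HFD sham was -1.50 (-1.57 to -1.44) in the villus-labelled libraries, at percentile 1.80, and 0.08 (0.04 to 0.13) in the crypt-labelled libraries. Scaled to the brush-border markers, which adds 1.34 to the ratio of every gene there, the villus-labelled ratio was -0.16. These markers are no fixed reference, since they were themselves lower in HFD VSG there. The study reported digestion and absorption pathways among the genes that VSG lowered in villus enterocytes. Whether the operation lowered these markers was not tested. With at most 10% mitochondrial UMIs a cell the crypt-labelled ratio turned, to -0.60 against HFD sham and -0.42 against LFD sham. Thinned to 1500 UMIs a cell, 12.3, 19.2 and 7.26% of villus-labelled enterocyte-like cells of LFD sham, HFD sham and HFD VSG held a *Cd36* UMI, against 53.8, 74.9 and 61.6% before thinning. In Paneth-like cells of the same libraries, which are secretory and do not absorb fat, the thinned share was 1.03, 0.810 and 1.18%, with median depths of 47300, 7874 and 5440 UMIs.

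*Slc27a4* (ENSMUSG00000059316, chromosome 2, 29802634 to 29817522, plus strand) encodes FATP4, an acyl-CoA synthetase and fatty acid transport protein. It stood at 298 CPM in LFD sham, 386 CPM in HFD sham and 314 CPM in HFD VSG in the crypt-labelled libraries, and at 245, 299 and 184 CPM in the villus-labelled ones. HFD sham was thus the highest group in both fractions. Its log2 ratio of HFD sham to LFD sham was 0.38 (0.34 to 0.41) in the crypt-labelled and 0.29 (0.25 to 0.34) in the villus-labelled libraries, and that of HFD VSG to HFD sham was -0.30 (-0.33 to -0.26) and -0.70 (-0.74 to -0.66). Scaling to the brush-border markers turned the last of these, to 0.64. With free RNA subtracted by a fraction estimated from immune-like cells, the crypt-labelled ratios changed sign, to -0.07 for HFD sham against LFD sham and 0.24 for HFD VSG against HFD sham. That fraction was large, at 42.2, 53.3 and 34.9% in the crypt-labelled LFD sham, HFD sham and HFD VSG libraries. It came from cells with a median of 3259, 3250 and 3559 UMIs, against 15239, 13821.5 and 17841.5 UMIs in enterocyte-like cells. It may therefore overstate the share of free RNA in the deeper cells. The study estimated smaller fractions for these libraries, and with those neither of these signs changed.

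*Fabp1* (ENSMUSG00000054422, chromosome 6, 71199827 to 71205023, plus strand) encodes the liver-type fatty acid binding protein, which the proximal intestine also makes. Its level was 18437, 18373 and 20019.5 CPM in the crypt-labelled LFD sham, HFD sham and HFD VSG libraries and 19219.5, 20718 and 23508 CPM in the villus-labelled ones. The 6 values were within a narrow band for a gene of this level, and HFD VSG was the highest group in both fractions, by log2 0.12 (0.12 to 0.13) and 0.18 (0.18 to 0.19) over HFD sham. Neither direction held in each setting, since the crypt-labelled ratio was -0.14 with free RNA subtracted by the fraction from immune-like cells, and the villus-labelled ratio -0.10 with the bins of a villus-tip score, described further on, weighted equally.

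*Fabp2* (ENSMUSG00000023057, chromosome 3, 122895072 to 122899506, plus strand) encodes the intestinal-type binding protein, and a gene on the opposite strand, *4933405D12Rik*, overlaps it. It was at 25319 CPM in LFD sham, 35504 CPM in HFD sham and 29035 CPM in HFD VSG in the crypt-labelled libraries, and at 16648, 25665 and 15756 CPM in the villus-labelled ones. As with *Slc27a4*, HFD sham was the highest group in both fractions. The log2 ratio of HFD sham to LFD sham was 0.49 in the crypt-labelled libraries, at percentile 94.2, and 0.62 in the villus-labelled libraries, at percentile 97.2, and that of HFD VSG to HFD sham was -0.29 and -0.70. Counting error on these ratios was below 0.01. With the level scaled to the brush-border markers, the villus-labelled ratio of HFD VSG to HFD sham turned to 0.64.

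*Acsl5* (ENSMUSG00000024981, chromosome 19, 55251938 to 55297720, plus strand, overlapped on the other strand by *Zdhhc6*) encodes the main long-chain acyl-CoA synthetase of enterocytes. It was at 1253 CPM in LFD sham, 1404 CPM in HFD sham and 1237 CPM in HFD VSG in the crypt-labelled libraries. Villus-labelled values were 1014, 1299.9 and 596 CPM, so that HFD VSG lay far below the other 5 libraries. The log2 ratio of HFD VSG to HFD sham was -1.12 (-1.15 to -1.10) in the villus-labelled libraries, at percentile 4.02, and -0.18 (-0.20 to -0.16) in the crypt-labelled ones. That of HFD sham to LFD sham was 0.16 (0.14 to 0.18) in the crypt-labelled and 0.36 (0.34 to 0.38) in the villus-labelled libraries. The villus-labelled ratio of HFD VSG to HFD sham turned to 0.22 when scaled to the brush-border markers.

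*Mogat2* (ENSMUSG00000052396, chromosome 7, 99219084 to 99238619, minus strand, overlapped on the other strand by *Gm45012*) encodes the acyltransferase that starts resynthesis from monoacylglycerol. It lay between 238 and 294 CPM, at 238, 257 and 270.1 CPM in the crypt-labelled LFD sham, HFD sham and HFD VSG libraries and at 244, 293 and 294 CPM in the villus-labelled ones. The lowest value in each fraction was that of LFD sham. HFD VSG and HFD sham did not differ beyond counting error in the villus-labelled libraries, with a log2 ratio of 0.00 (-0.03 to 0.04), and differed by 0.07 (0.03 to 0.11) in the crypt-labelled ones. That 0.00 joins unlike values, since along the villus-tip score it was -0.11 (-0.16 to -0.05) in the lowest bin and 0.36, 0.23 and 0.34 in the 3 higher ones, each beyond counting error, and 4 of 6 clusters were above 0 (-0.54 to 0.51).

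*Dgat1* (ENSMUSG00000022555, chromosome 15, 76502015 to 76511953, minus strand) encodes one of the 2 enzymes that finish triglyceride. It was at 651, 711 and 659.8 CPM in the crypt-labelled LFD sham, HFD sham and HFD VSG libraries and at 599.5, 700.2 and 627 CPM in the villus-labelled ones. HFD sham was the highest group in both fractions, by log2 0.13 (0.10 to 0.15) and 0.22 (0.19 to 0.25) over LFD sham, and HFD VSG lay below it by a log2 ratio of -0.11 (-0.13 to -0.08) and -0.16 (-0.18 to -0.14). The crypt-labelled ratio was 0.16 with free RNA subtracted by the fraction from immune-like cells. The villus-labelled ratio was -0.21 (-0.25 to -0.18) in the lowest bin of the tip score but 0.13, 0.20 and 0.40 in the others, each beyond counting error, and it was above 0 in 3 of 6 clusters.

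*Dgat2* (ENSMUSG00000030747, chromosome 7, 99153658 to 99182719, minus strand) encodes the other, unrelated in sequence, and is the neighbour of *Mogat2*, with 36364 bases and no annotated gene between them. It was at 306 CPM in LFD sham, 255 CPM in HFD sham and 233 CPM in HFD VSG in the crypt-labelled libraries, and at 206, 235 and 113 CPM in the villus-labelled ones. It was the only gene of the 10 with its highest crypt-labelled value in LFD sham. The log2 ratio of HFD sham to LFD sham was -0.26 (-0.31 to -0.22) in the crypt-labelled and 0.19 (0.14 to 0.24) in the villus-labelled libraries. That of HFD VSG to HFD sham was -0.13 (-0.18 to -0.09) and -1.06 (-1.10 to -1.01), the latter at percentile 4.80. When scaled to the brush-border markers this villus-labelled ratio turned to 0.28, and the crypt-labelled ratio of HFD sham to LFD sham to 0.23.

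*Plin2* (ENSMUSG00000028494, chromosome 4, 86648386 to 86670060, minus strand) encodes a coat protein that stays on lipid droplets and is degraded when it is free of lipid. It was at 84 CPM in LFD sham, 112 CPM in HFD sham and 128 CPM in HFD VSG in the crypt-labelled libraries, and at 109.9, 162 and 155 CPM in the villus-labelled ones. Both high-fat groups were above LFD sham in both fractions. The log2 ratio of HFD sham to LFD sham was 0.42 (0.35 to 0.49) in the crypt-labelled and 0.56 (0.49 to 0.63) in the villus-labelled libraries, and that of HFD VSG to LFD sham was 0.60 (0.54 to 0.66) and 0.495 (0.43 to 0.56). Between HFD VSG and HFD sham the log2 ratio was 0.18 (0.12 to 0.24) and -0.06 (-0.11 to -0.01). Thinned to 1500 UMIs, 12.1, 19.8 and 19.2% of villus-labelled enterocyte-like cells of LFD sham, HFD sham and HFD VSG held a *Plin2* UMI (58, 77.7 and 95.4% before thinning), against 1.54, 2.43 and 4.71% of Paneth-like cells. Paneth-like cells had the lowest median *Plin2* level of the named classes, while stem-like cells stood at 63.1 to 79.2 CPM over the libraries.

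*Plin3* (ENSMUSG00000024197, chromosome 17, 56277476 to 56292873, minus strand) encodes a coat protein that moves from the cytosol onto new droplets. It was at 231, 257 and 264 CPM in the crypt-labelled LFD sham, HFD sham and HFD VSG libraries and at 221, 231 and 252 CPM in the villus-labelled ones. The order of the groups was the same in both fractions, but the steps were small, and HFD VSG and HFD sham did not differ beyond counting error in the crypt-labelled libraries, with a log2 ratio of 0.04 (-0.00 to 0.08). The villus-labelled ratio of 0.12 rose along the tip score, at 0.15, 0.35, 0.57 and 0.87 from the lowest to the highest bin, each beyond counting error, and was 0.54 with the bins weighted equally.

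**Figure D2:**
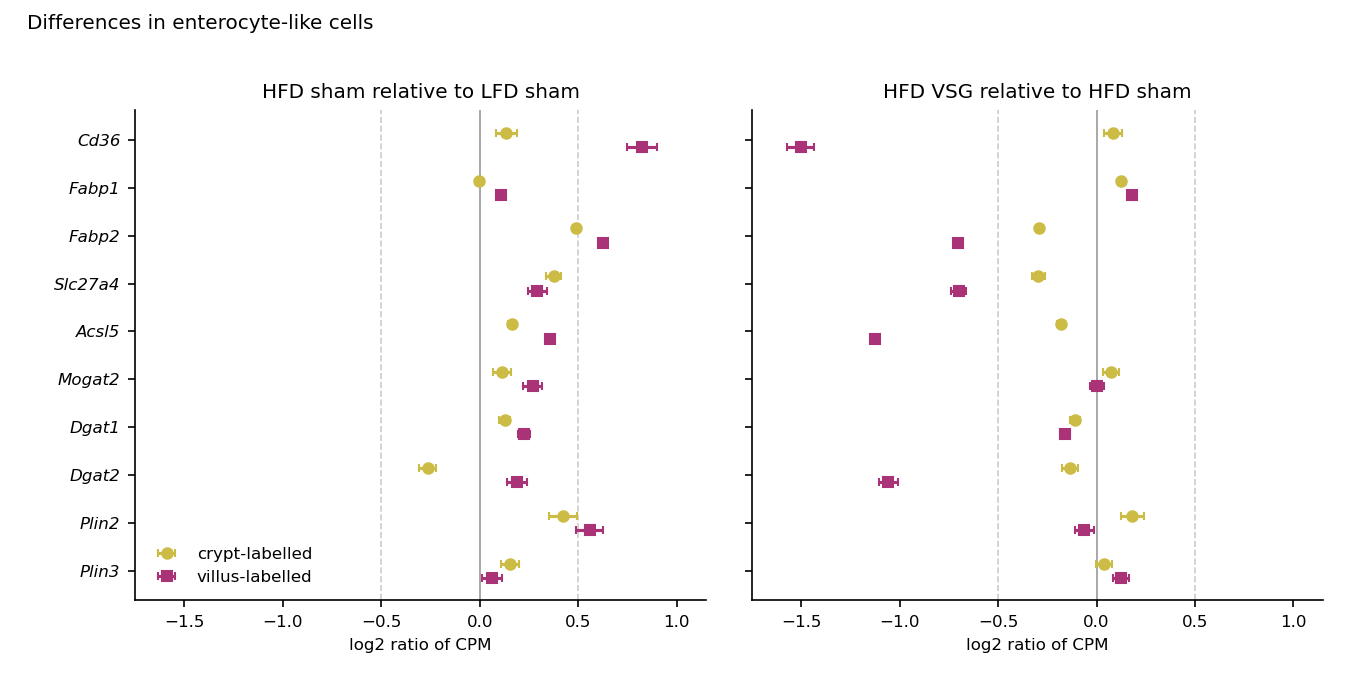
Log2 ratio of CPM between groups for each gene in enterocyte-like cells, by fraction; points are the ratios of 1 library to 1 library and bars are exact 95% binomial intervals that cover counting error only, with dashed lines at 0.5 and -0.5. In the villus-labelled libraries *Cd36*, *Acsl5*, *Dgat2*, *Fabp2* and *Slc27a4* lie below -0.5 for HFD VSG against HFD sham, from -1.50 to -0.70, while *Cd36*, *Fabp2* and *Plin2* lie above 0.5 for HFD sham against LFD sham.

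Over the 10 genes, a difference of at least 0.5 on the log2 scale was counted, a size chosen for description and not a test. For HFD sham against LFD sham, 0 genes were higher and 0 lower by that much in the crypt-labelled libraries, where 5.48% of the 10013 genes measured were higher and 6.48% lower. In the villus-labelled libraries 3 of 10 were higher (*Cd36*, *Fabp2* and *Plin2*) and 0 lower, beside 4.43% of 10180 genes higher and 9.17% lower. The ratio was above 0 for 10 of 10 genes in the villus-labelled and 8 of 10 in the crypt-labelled libraries. The median of the 10 log2 ratios was 0.28 in the villus-labelled libraries against -0.03 over all genes measured, and 0.15 against 0.01 in the crypt-labelled libraries. The summed brush-border markers were lower in HFD sham in the same comparisons, at 21149 against 29841 CPM crypt-labelled and 18934 against 22858 CPM villus-labelled. Set against these markers, 8 genes were higher in the crypt-labelled and 6 in the villus-labelled libraries, in place of 0 and 3. That scaling adds log2 0.50 and 0.27 to the ratio of every gene, so the shares of all genes given above do not apply to these counts. The 4 genes listed for damaged droplets were *Gm42418*, *Gm26917*, *Lars2* and *AY036118*, and whether they mark damage in these cells was not tested. They were at 49310.0 CPM in HFD sham and 58950.3 CPM in LFD sham crypt-labelled and at 37258 and 58646 CPM villus-labelled, and their part was not tested.

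For HFD VSG against HFD sham, 0 of 10 were higher and 0 lower in the crypt-labelled libraries, beside 6.06% and 2.33% of all genes. In the villus-labelled libraries 5 of 10 were lower (*Cd36*, *Acsl5*, *Dgat2*, *Fabp2* and *Slc27a4*) and 0 higher, but there 19.8% of all genes were lower and 23.9% higher by as much. The median of the 10 was -0.43 against 0.00 over all genes in the villus-labelled libraries, and -0.03 against 0.10 in the crypt-labelled ones. Summed over enterocyte-like cells, the 4 genes listed for damaged droplets were at 37258 CPM in villus-labelled HFD sham and 8889 CPM in HFD VSG, and 10 Paneth markers at 2639 and 601 CPM, and their part in these differences was not tested. The 5 became 1 where the 4 bins of the villus-tip score described further on were weighted equally. Where the level was set against the brush-border markers, 0 were lower and 7 higher. These markers differed by log2 1.34 relative to total UMIs between these 2 libraries. Scaling to them adds 1.34 to the ratio of every gene, and the 10th percentile over all genes was -0.77 before it. Most genes thus count as higher under this scaling as well, and the 7 are no sign of a rise particular to these genes.

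For HFD VSG against LFD sham, a comparison that shares its libraries with the 2 others, 1 of 10 was higher in the crypt-labelled libraries (*Plin2*, 0.60) and 0 lower, beside 9.94% and 4.43% of all genes. *Plin2* was just under 0.5 with median-of-ratios scaling (0.496) and at 0.42 with free RNA subtracted by the fraction from immune-like cells. Among villus-labelled libraries 0 were higher and 3 lower, *Cd36* at -0.68, *Acsl5* at -0.77 and *Dgat2* at -0.87, beside 22.3% and 21.6% of all genes. The brush-border markers were at 7475 CPM in HFD VSG and 22858 CPM in LFD sham there, and the genes listed for damaged droplets at 8889 and 58646 CPM. Set against the markers 10 were higher and 0 lower, with *Cd36* at 0.93, *Acsl5* at 0.85 and *Dgat2* at 0.75, and with equal tip-score bins 3 were higher and 0 lower, *Cd36* being at 0.59. Scaling to the markers adds 1.61 to the ratio of every gene here, and the 10th percentile over all genes was -0.80 before it, so that most genes pass 0.5 under it as well. Scaled to total UMIs, the shares over all genes in both comparisons with the villus-labelled HFD VSG library were about as large in either direction, and far above those in the comparisons without it.

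Positions in the villus were approached through a villus-tip score, the share of UMIs in a cell from *Ada*, *Nt5e*, *Slc28a2*, *Krt20*, *Cldn4* and *Mxd1*, genes that enterocytes raise as they near the tip. The enterocyte-like cells of all libraries were ranked together and cut into 4 equal bins. *Fabp1* was lower at each step from the lowest to the highest bin in 6 of 6 libraries, and its top bin was below its lowest bin by a log2 difference of -1.52 (median of the libraries, -2.22 to -1.29). *Plin2* (-0.97, -2.04 to -0.81) and *Mogat2* (-0.64, -0.86 to -0.26) were also lower in the top bin of each library. *Dgat2* was higher at each step in 6 of 6 libraries, by 0.91 in all (0.74 to 1.64), and *Slc27a4* (1.04, 0.85 to 2.02) and *Plin3* (0.54, 0.32 to 1.13) were higher in the top bin of each library. *Cd36* was higher in the top bin in 5 of 6 libraries (0.79, -0.16 to 2.42), the villus-labelled LFD sham library being the exception. *Fabp2* was higher in 5 of 6, *Dgat1* in 4 of 6 and *Acsl5* in 1 of 6. The 2 enzymes that finish triglyceride thus differed along the score, since *Dgat1* had a median difference of 0.05. The median depth of the cells was lower in the top bin as well, at 5767 to 18879 UMIs over the 6 libraries against 15885 to 35444 UMIs in bin 1, and its part in these differences was not tested.

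**Figure D3:**
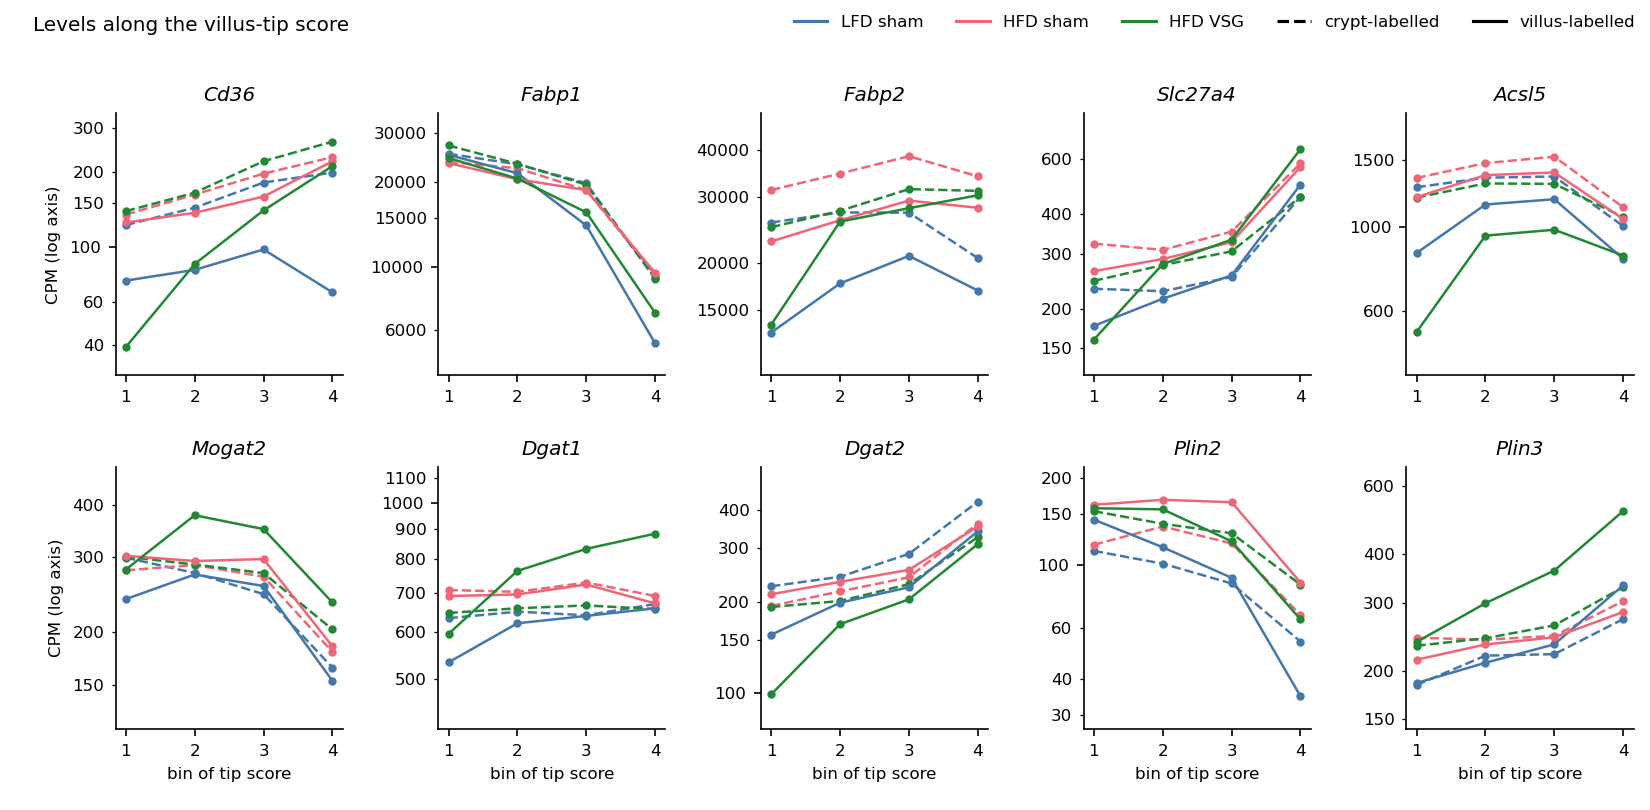
Level of each gene in CPM (log axis) in the 4 bins of the villus-tip score, bin 1 lowest, in enterocyte-like cells; each line is 1 library, dashed for crypt-labelled and solid for villus-labelled. *Fabp1* is lower and *Dgat2* higher at each step from bin 1 to bin 4 in each library, and the villus-labelled HFD VSG line of *Cd36* starts at 39.4 CPM in bin 1 and reaches 211 CPM in bin 4.

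The libraries filled these bins unequally. The lowest bin held 7.12, 8.63 and 14.9% of the enterocyte-like cells in the crypt-labelled LFD sham, HFD sham and HFD VSG libraries, 30.8% and 31.7% in the villus-labelled LFD sham and HFD sham libraries, and 81.6% (1303 cells) in the villus-labelled HFD VSG library, which had only 35 cells in the top bin. For *Cd36* the villus-labelled log2 ratio of HFD VSG to HFD sham was -1.67 in bin 1, -0.69 in bin 2, -0.19 (-0.39 to 0.01) in bin 3 and -0.06 (-0.36 to 0.23) in bin 4. *Cd36* was at 39.4 CPM in HFD VSG and 125 CPM in HFD sham in bin 1, but at 211 and 221 CPM in bin 4. *Acsl5* was at -1.18, -0.53, -0.50 and -0.32 in the same bins, and *Dgat2* at -1.09, -0.46, -0.32 and -0.19. *Fabp2* and *Slc27a4* were at -0.74 and -0.73 in bin 1 but at -0.01 and -0.05 in bin 2. The lower levels of these 5 genes in the villus-labelled HFD VSG library were thus most marked in the bin that held most of its cells.

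For HFD sham against LFD sham, the 3 genes beyond 0.5 did not narrow in this way. There the villus-labelled log2 ratio of *Cd36* was 0.78, 0.76, 0.71 and 1.76 from bin 1 to bin 4, and that of *Fabp2* 0.81, 0.56, 0.49 and 0.73. That of *Plin2* was 0.17, 0.55, 0.87 and 1.31, so that its difference was larger towards the top of the score. Other genes did narrow from bin 1 to bin 4, *Slc27a4* from 0.58 to 0.19, *Dgat2* from 0.44 to 0.05 and *Dgat1* from 0.38 to 0.03, and *Plin3* went from 0.20 to -0.23. *Fabp1* widened, at -0.10, -0.07, 0.42 and 0.83, although its pooled ratio was 0.11.

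The 8 enterocyte-like clusters gave a second view. *Cd36* was highest in cluster 0, led by *Pmp22* and *Apoa4*, in 6 of 6 libraries, with 256, 291 and 314 CPM in the crypt-labelled and 135, 274 and 164 CPM in the villus-labelled LFD sham, HFD sham and HFD VSG libraries. *Fabp1* was lowest in the cluster led by tip markers in 5 of 6 libraries (in the villus-labelled HFD VSG library that cluster had fewer than 20 cells), down to 1612 CPM in the crypt-labelled LFD sham library against 24071 CPM in the highest cluster there. Of the villus-labelled libraries, *Cd36* of HFD VSG was below HFD sham in 6 of the 6 clusters with at least 20 cells in both, by log2 ratios from -1.96 to -0.59. *Acsl5* (-2.10 to -0.27), *Dgat2* (-1.60 to -0.39), *Fabp2* (-1.25 to -0.06) and *Slc27a4* (-1.20 to -0.11) were also below in 6 of 6 clusters, while *Fabp1* was above in 5. The largest share of villus-labelled HFD VSG enterocyte-like cells, 39.5%, was in the cluster led by *Fabp6* and *Reg3a*, whereas in HFD sham the largest share, 38.1%, was in cluster 1. For HFD sham against LFD sham in the villus-labelled libraries, *Cd36*, *Fabp2*, *Slc27a4*, *Acsl5* and *Plin2* were above in 7 of 7 clusters. In the crypt-labelled libraries the same 5 genes and *Plin3* were above in 7 of 7 clusters, *Plin2* by log2 ratios from 0.25 to 0.87.

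Ratios between related genes within a library do not depend on the total by which the counts were scaled. The ratio of *Fabp1* to *Fabp2* UMIs was 0.728 in LFD sham, 0.518 in HFD sham and 0.689 in HFD VSG of the crypt-labelled libraries, and 1.154, 0.807 and 1.49 in the villus-labelled ones. HFD sham thus had the lowest ratio in both fractions. The ratio of *Dgat2* to *Dgat1* was 0.470, 0.359 and 0.352 in the crypt-labelled libraries and 0.344, 0.336 and 0.180 in the villus-labelled ones, with HFD VSG lowest in both, though within counting error of HFD sham in the former. The ratio of *Plin2* to *Plin3* was 0.364, 0.438 and 0.484 in the crypt-labelled and 0.496, 0.700 and 0.615 in the villus-labelled libraries, where LFD sham was lowest in both. The ratio of *Mogat2* to *Dgat1* lay between 0.361 and 0.469, and that of *Slc27a4* to *Acsl5* between 0.230 and 0.309.

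**Figure D4:**
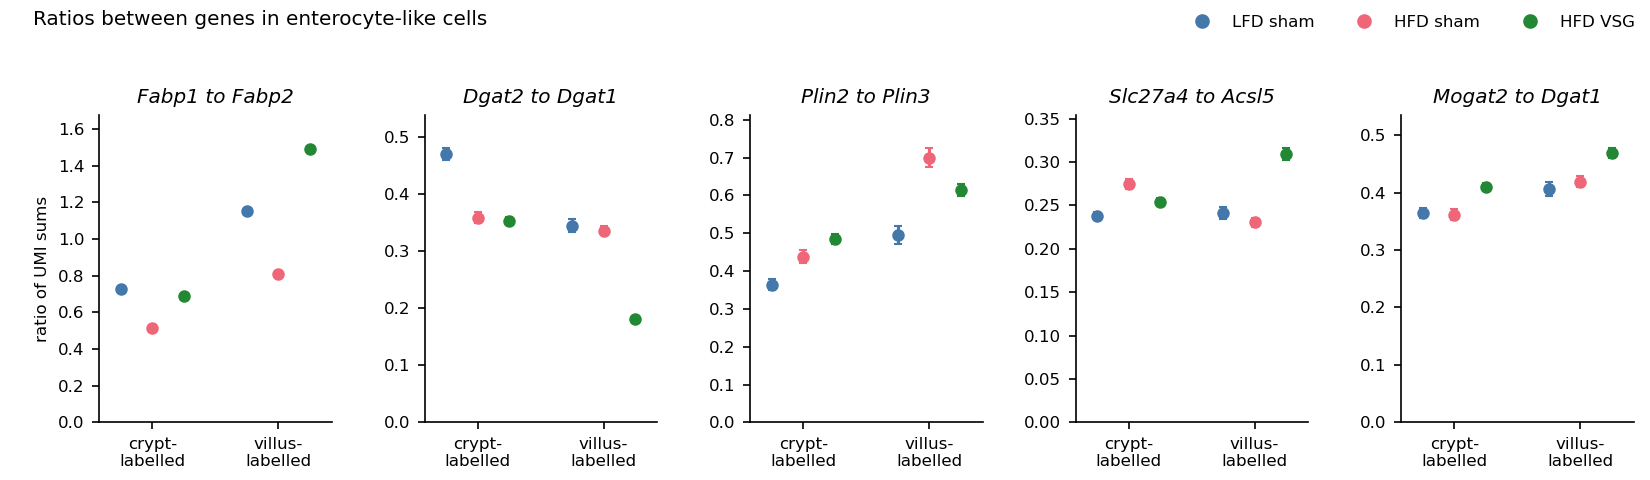
Ratios of summed UMIs of 2 related genes in enterocyte-like cells of each library, on a linear axis from 0, with exact 95% binomial intervals that cover counting error only. *Fabp1* to *Fabp2* is lowest in HFD sham in both fractions (0.518 and 0.807), and *Dgat2* to *Dgat1* is lowest in the villus-labelled HFD VSG library (0.180).

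All 10 genes were higher in enterocyte-like cells than in each other named class, in every library with at least 20 cells of that class. With the unnamed clusters counted too, *Cd36*, *Fabp2*, *Acsl5*, *Mogat2*, *Dgat2* and *Plin3* were highest in enterocyte-like cells in 6 of 6 libraries. The median ratio of enterocyte-like to goblet-like cells was 13 for *Cd36* and 3.04 for *Plin2*, and that to stem-like cells was 20.4 and 1.60. *Plin2* had the lowest median ratio of the 10 genes to both classes, with *Plin3* close to it for goblet-like cells at 3.12, but for Paneth-like cells the ratio was 12.5 for *Plin2* and 9.61 for *Plin3*. It was at 63.1 to 79.2 CPM in stem-like and 60.7 to 84.7 CPM in mitotic cells but at 8.09 to 16.3 CPM in Paneth-like cells. In cluster 4, left unnamed and led by *Gsdmc4*, *Dmbt1*, *Kcne3*, *Fgfbp1* and *Ccnd1*, it stood at 122.6 to 150.4 CPM and was above the enterocyte-like cells in 4 of 6 libraries. *Fabp1* was also high in cluster 4, at 11287 to 19934 CPM, and in mitotic cells it was at 3973 to 4312 CPM in the 6 libraries. *Slc27a4* and *Dgat1* were higher in the shallow clusters 3 and 5, which held markers of several cell types, than in enterocyte-like cells in 3 and 2 libraries.

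**Figure D5:**
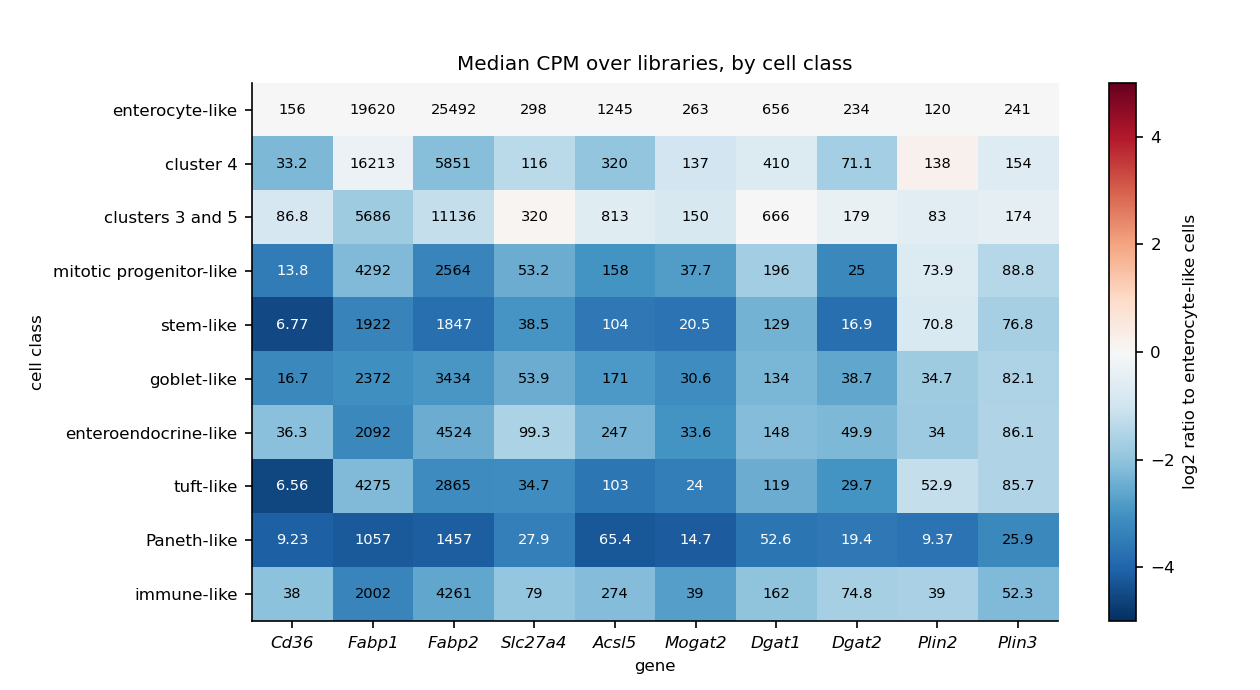
Median CPM over the libraries with at least 20 cells, for each gene (columns) in each cell class (rows); numbers are the medians and colour is the log2 ratio to the enterocyte-like class, red above and blue below. Only *Plin2* in cluster 4 (138 CPM) and *Slc27a4* and *Dgat1* in clusters 3 and 5 (319.7 and 666 CPM) have a median above that of enterocyte-like cells.

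Droplets with fewer than 100 UMIs, which hold mostly free RNA, contained the same transcripts, and the part of free RNA in the levels of the other classes was not tested. *Fabp2* was at 26921 CPM in droplets of the crypt-labelled HFD sham library against 35504 CPM in its enterocyte-like cells, and at 6380 against 16648 CPM in the villus-labelled LFD sham library. *Slc27a4* was at 299 and 450 CPM in droplets of the crypt-labelled LFD sham and HFD sham libraries, at or above its level in the cells, and *Dgat1* at 678 and 717 CPM was above its level there too. *Cd36* in droplets was at 83.1, 99.8 and 94.1 CPM in the crypt-labelled and 27.2, 42.5 and 20.3 CPM in the villus-labelled LFD sham, HFD sham and HFD VSG libraries, an order close to that in the cells. In goblet-like cells *Cd36* was at 44.7, 48.9 and 27.3 CPM in the crypt-labelled libraries, below the droplets, and at 4.23, 6.15 and 0.884 CPM in the villus-labelled ones. Markers of other cells were also read in the enterocyte-like class. The 10 Paneth markers summed to 386 to 2930 CPM and the 9 goblet markers to 276 to 587 CPM. The 7 macrophage markers summed to 0.320 to 0.688 CPM, the 5 endothelial markers to 0.355 to 1.46 CPM, and of the 5 adipocyte markers *Adipoq* and *Lep* were at 0 in each library, and *Cidec* alone gave 20.9 to 59.6 CPM. The 12 immune markers summed to 0.817 to 46.4 CPM, highest in the villus-labelled LFD sham library, and the 4 erythroid markers to 0 to 53.5 CPM, highest in the villus-labelled HFD VSG library. Their part in the levels was not tested.

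The villus-labelled differences were also read in the other classes. *Plin2* of HFD sham against LFD sham, at log2 0.56 in enterocyte-like cells, was at -0.07 (-0.40 to 0.26) in goblet-like, -0.17 (-0.49 to 0.15) in stem-like, 0.16 (-0.04 to 0.37) in mitotic cells and -0.11 (-0.27 to 0.05) in cluster 4, each within counting error of 0. So were Paneth-like cells at 0.42 (-0.13 to 0.97), from 47 and 75 UMIs, and tuft-like cells at -0.20 (-1.07 to 0.63), from 21 and 32 UMIs, but the enteroendocrine-like cells were at 1.25 (0.37 to 2.18), from 34 and 17 UMIs. *Fabp2*, at 0.62 in enterocyte-like cells, was at 0.36 in goblet-like, 0.43 in stem-like, 0.35 in mitotic cells and 0.32 in cluster 4. It was further apart in the rarer classes, at 1.501 in Paneth-like (1107 against 391 CPM), 1.11 in tuft-like and 1.70 in enteroendocrine-like cells. Its level in droplets differed between the same libraries as well, at 12510.4 CPM in HFD sham and 6380 CPM in LFD sham. For HFD VSG against HFD sham, *Cd36* was at -2.80 (-4.25 to -1.55) in goblet-like cells, from 7 and 25 UMIs, at -2.20 (-2.81 to -1.59) in mitotic cells, from 52 and 45 UMIs, and at -2.05 (-2.37 to -1.73) in cluster 4. Stem-like cells, with 31 and 7 UMIs, gave -0.91 (-2.12 to 0.52). The lower *Cd36* count was thus not limited to the enterocyte-like class, and the droplets of that library held less of it too (20.3 against 42.5 CPM). *Acsl5* was at -1.76 (-1.86 to -1.67) and *Dgat2* at -1.76 (-1.96 to -1.56) in cluster 4, below their ratios in enterocyte-like cells. Both were nearer to 0 in goblet-like (-0.68 and -0.62) and stem-like cells (-0.74 and -0.70). *Acsl5* was also nearer to 0 in mitotic (-0.82), Paneth-like (-0.55) and tuft-like cells (-0.28, -0.82 to 0.27), while *Dgat2* was at -1.07 in mitotic and -1.53 (-2.33 to -0.78) in Paneth-like cells, the latter from 20 and 63 UMIs, and at 0.12 (-1.15 to 1.53) in tuft-like cells, from 18 and 8 UMIs.

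Further genes of the pathway were counted from lists of related genes in enterocyte-like cells. Of 14 uptake and activation genes 9 were measured, and for HFD sham against LFD sham 1 was higher and 1 lower by 0.5 in the crypt-labelled libraries and 0 and 1 in the villus-labelled ones, where shares of all genes were 5.48% higher and 6.48% lower, and 4.43% and 9.17%. In HFD VSG relative to HFD sham, 2 were higher and 0 lower in the crypt-labelled libraries (6.06% and 2.33% of all genes), and 2 and 3 in the villus-labelled ones (23.9% and 19.8%). These shares are the background of the lists that follow as well. The gene that was higher was *Scarb1*, a lipoprotein receptor, at 2.88 CPM in HFD sham against 0.858 CPM in LFD sham of the crypt-labelled libraries (log2 1.75, 1.146 to 2.38). It was also the gene that was lower in the villus-labelled libraries, at 2.15 against 3.22 CPM (-0.59, -1.08 to -0.10), so that its direction differed between the fractions. Of 15 glycerolipid synthesis genes 11 were measured in the crypt-labelled and 13 in the villus-labelled libraries. There, 0 were higher and 1 and 2 lower for HFD sham against LFD sham, while for HFD VSG against HFD sham 0 passed in the crypt-labelled libraries and 3 were higher and 5 lower in the villus-labelled ones, where 23.9% of all genes were higher and 19.8% lower. *Lpin1*, a phosphatidate phosphatase, was at 4.89 CPM in villus-labelled HFD VSG against 0.484 CPM in HFD sham (log2 3.34, 2.61 to 4.16), from 289 and 16 UMIs. It counted as measured only through the library where it was high, since a mean of 50 UMIs over the 3 libraries of a fraction was asked for and LFD sham held 26 UMIs. The same held for *Agpat4*, an acyltransferase named after its values were seen, with 202, 26 and 46 UMIs in HFD VSG, HFD sham and LFD sham. These 2 genes made up both villus-labelled genes lower in HFD sham than in LFD sham and 2 of the 3 higher in HFD VSG. The 1 crypt-labelled gene that was lower, *Gpam*, only just passed, with 66, 27 and 58 UMIs in LFD sham, HFD sham and HFD VSG. It would not have passed without LFD sham, so that these counts say nothing of the list. Without such genes 0 were higher and 0 lower for HFD sham against LFD sham in either fraction, and 1 was higher and 5 lower for villus-labelled HFD VSG against HFD sham. Of all 10180 genes measured in that last comparison 569 were such genes, and among the rest 2063 were higher and 1985 lower.

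Droplet and lipolysis genes included the carboxylesterases *Ces1d* and *Ces1f*, which were higher in villus-labelled HFD sham than in LFD sham. *Ces1f* was at 154 against 58.8 CPM (log2 1.39, 1.304 to 1.48) and *Ces1d* at 29.7 against 15.7 CPM (0.92, 0.74 to 1.09). In the crypt-labelled libraries *Ces1f* was at 87.4 against 27.7 CPM (1.66), whereas *Ces1d* had a log2 ratio of -0.06 (-0.20 to 0.09). In HFD VSG *Ces1d* was below HFD sham in both fractions, by log2 ratios of -1.60 in the crypt-labelled and -2.12 in the villus-labelled libraries, and *Ces1f* by -1.30 and -0.76. *Mgll*, the monoacylglycerol lipase, was at 0.544 against 1.63 CPM for HFD sham against LFD sham in the villus-labelled libraries, from 18 and 38 UMIs, and at 5.16 CPM in HFD VSG (log2 3.25, 2.56 to 4.02, over HFD sham), from 305 UMIs. It too counted as measured only through HFD VSG. Over the list, 1 of 10 and 3 of 11 measured genes were higher for HFD sham against LFD sham and 0 and 1 lower, in the crypt-labelled and villus-labelled libraries, and for HFD VSG against HFD sham 0 and 2 were higher and 2 and 5 lower. *Mgll* was the 1 gene lower for HFD sham against LFD sham and 1 of the 2 higher for HFD VSG, so that without it these were 0 and 1. The counts for HFD VSG stand beside 6.06 and 23.9% of all genes higher and 2.33 and 19.8% lower.

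Of 13 transcriptional regulators, all measured, 1 was higher in HFD sham than in LFD sham in each fraction and 0 lower. It was *Pparg* in both, the fat-cell receptor of the PPAR family, at log2 0.63 and 0.59. For HFD VSG against HFD sham *Srebf1*, a regulator of lipid synthesis, was higher in the crypt-labelled libraries (49.6 against 28.3 CPM, log2 0.81), and 1 was lower in the villus-labelled ones, *Hnf4g* at -0.91. *Pparg* and *Hnf4g* were named after their values were seen, because the counts were small. The median log2 ratio of the 13 lay between -0.13 and 0.11 over these 4 comparisons.

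The 15 genes listed as PPARα targets included genes beyond 0.5 in both directions in each comparison. For HFD sham against LFD sham 2 were higher and 3 lower in the crypt-labelled libraries (5.48% and 6.48% of all genes) and 1 and 3 in the villus-labelled ones (4.43% and 9.17%). In HFD VSG relative to HFD sham, 2 were higher and 1 lower in the crypt-labelled libraries (6.06% and 2.33%) and 3 and 4 in the villus-labelled ones (23.9% and 19.8%). *Pdk4*, a kinase that restrains glucose oxidation, was at 13.1 CPM in villus-labelled HFD VSG against 60.7 CPM in HFD sham (-2.21). *Angptl4*, an inhibitor of lipoprotein lipase, was at 18.0 against 43.7 CPM for HFD sham against LFD sham in the crypt-labelled libraries (-1.28), and *Acot1*, an acyl-CoA thioesterase, at 8.28 against 2.50 CPM (1.73). *Gpam*, the mitochondrial acyltransferase of the glycerol phosphate route, was near the limit of counting there, at 0.960 against 1.72 CPM from 27 and 66 UMIs. For HFD sham against LFD sham in the villus-labelled libraries, *Angptl4* was at -1.03 and *Acot1* at 0.02 (-0.20 to 0.23).

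Among single enterocyte-like cells thinned to 1500 UMIs, the variance over the mean was 8.28 to 19.2 for *Fabp1* and 9.43 to 19.8 for *Fabp2*, but 1.01 to 1.34 for the other 8 genes, where 1 is what counting alone gives. Before thinning, the tenth of cells with the most UMIs of the gene held 28.6 to 41.8% of all *Cd36* UMIs and 28.5 to 43.0% of *Plin2* UMIs, against 20 to 25.2% for *Dgat1*. Such shares also depend on the depth of the cells and on how many UMIs the gene has, and this was not tested. Over 58 units of a cell class in a library with at least 20 cells, *Cd36* was like *2010106E10Rik* (Pearson r = 0.97 of log2 CPM + 1, among 8379 genes) and *Mme* (0.97). *Fabp1* was most like *Tm6sf2* (0.94), *Dhrs1* and *Chp2*, *Fabp2* like *Cndp2* (0.96), *Slc7a7* and *Cyp4f14*, and *Acsl5* like *Cndp2* (0.98), *Pepd* and *Cyp4f14*. *Slc27a4* was most like *Alpi* (0.97), *Gpt* and *Emp1*. *Mogat2* was most like *Cox7a1* (0.96), *Tm6sf2* and *Slc7a9*, *Dgat1* like *Smim24* (0.97), *Ces2e* and *Creb3l3*, and *Dgat2* like *Cyp3a13* (0.97) and *Clec2h*. *Plin2* was most like *Isoc1* (0.94), *Acadm* and *Aprt*, and *Plin3* like *Tm4sf5* (0.96), *Ckmt1* and *Smim24*. These units share libraries and cell classes, and the values are descriptions. Among the 10 genes, *Cd36* and *Dgat2* had r = 0.95 and *Cd36* and *Plin2* r = 0.40.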

How the data were processed

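Libraries were 10x Genomics 3′ single-cell libraries. The authors deposited raw UMI counts per gene and barcode, made with Cell Ranger 6.0.0 on mm10 per the labels, as called and unfiltered barcodes. Called barcodes with at least 750 genes and at most 20% mitochondrial UMIs were kept, after predicted doublets (4794) were removed with Scrublet in scanpy 1.11.5. Cells were normalised with sctransform 0.4.2 and clustered with Seurat 5.3.0 in R 4.3.3 at resolution 0.4, the members and related lists being left out of the 2000 variable genes. Clusters were named from marker lists, and the naming thresholds were set after the data were seen. UMIs were summed by class and library (Python 3.11.15). Ratios carry exact binomial and levels exact Poisson intervals (95%), and sums below 3 UMIs were set to 3. A gene was measured where its mean over the 3 libraries of a fraction reached 50 UMIs. No test was possible with 1 library a group. The members and lists were chosen with earlier results of these data known. All members are named, and of the lists the 2 highest and 2 lowest log2 ratios in each comparison of HFD sham with LFD sham and HFD VSG with HFD sham, and for likeness the 3 genes with the highest r (some genes under these rules are not reported here). Another 13 settings were tried, and 2 more were chosen after seeing the data. The scripts were tested on simulated data.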

Additional observations from a re-analysis of the deposited data

Results flagged for a closer look

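Over the 10 genes and 3 comparisons there were 6 cases with opposite signs of the log2 ratio in the crypt-labelled and villus-labelled libraries. In each case both intervals lay on their own side of 0. The share of all genes that did so is not given here, and at these UMI counts intervals leave 0 at small ratios. The difference between the fractions was not tested, since each fraction had 1 library a group. *Dgat2* had a log2 ratio of HFD sham to LFD sham of -0.26 in the crypt-labelled and 0.19 in the villus-labelled libraries, but of 0.23 and 0.46, with the same sign, when scaled to the brush-border markers. *Cd36* had a log2 ratio of HFD VSG to HFD sham of 0.08 in the crypt-labelled and -1.50 in the villus-labelled libraries. *Plin2* had a log2 ratio of HFD VSG to HFD sham of 0.18 in the crypt-labelled and -0.06 in the villus-labelled libraries. The other 3 concern HFD VSG against LFD sham, which shares its libraries with the comparisons above. There *Cd36* had log2 ratios of 0.22 and -0.68, *Fabp2* of 0.20 and -0.08 and *Slc27a4* of 0.08 and -0.41, in the crypt-labelled and villus-labelled libraries. Scaled to the markers, the villus-labelled ratios were 1.28 for *Plin2* of HFD VSG against HFD sham, and 0.93, 1.53 and 1.205 for *Cd36*, *Fabp2* and *Slc27a4* of HFD VSG against LFD sham. With equal tip-score bins the latter 3 were 0.59, 0.51 and 0.31. These rest heavily on few cells, since villus-labelled HFD VSG held 60 and 35 cells in bins 3 and 4. The crypt-labelled ratios changed sign too. At most 10% mitochondrial UMIs gave -0.60 for *Cd36* of HFD VSG against HFD sham and -0.42 against LFD sham. Free RNA subtracted by the fraction from immune-like cells gave -0.13 for *Plin2* against HFD sham and -0.04 for *Fabp2* against LFD sham, and weighting each cell equally gave -0.14 for *Slc27a4* against LFD sham.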

How the results depend on the processing

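No paired analysis was possible because each group had 1 library in each fraction and the labels carried no replicate numbers. No library could be left out for the same reason, and depth limited little, since the members had at least 1855 UMIs in each library's enterocyte-like cells. Counts of members beyond log2 0.5 changed as follows, and the cause was not tested unless the setting shows it. Scaling to the brush-border markers shifts the ratio of every gene alike. The shares of all genes given above therefore do not apply to its counts. A sign that turned under it is relative to these markers, which differed between the groups themselves. For HFD sham against LFD sham in the crypt-labelled libraries, 0 higher became 8 when scaled to the brush-border markers, 2 with free RNA subtracted by the study's fractions, and 1 with free RNA estimated from immune-like cells, at most 10% mitochondrial UMIs (3050 enterocyte-like cells left), resolution 0.8, each cell weighted equally, each cluster weighted equally or a total without the members, the last 2 settings being chosen after seeing the data. Villus-labelled, 3 higher became 6 with the markers and 0 at a size of log2 1. At 10% mitochondrial UMIs it was still 3, but *Plin2* was at 0.34 and *Slc27a4* at 0.68. For HFD VSG against HFD sham in the crypt-labelled libraries, 0 lower became 1 at 10% mitochondrial UMIs (*Cd36* at -0.60). Villus-labelled, 0 higher became 7 with the markers and 1 with equal tip-score bins, and 5 lower became 0, 1 and, at log2 1, 3. For HFD VSG against LFD sham in the crypt-labelled libraries, 1 higher became 9 with the markers and 0 with median-of-ratios scaling, immune-estimated free RNA or log2 1, and 0 lower became 1 with median-of-ratios scaling, 10% mitochondrial UMIs or each cell equal. Villus-labelled, 0 higher became 10 with the markers, 3 with equal bins, 2 with each cell equal, and 1 with median-of-ratios scaling, resolution 0.8, members kept in the clustering or, added later, each cluster equal, and 3 lower became 0 with the markers, equal bins or log2 1. Among members beyond 0.5, directions reversed in the villus-labelled libraries when scaled to the markers, for HFD VSG against HFD sham in *Fabp2* (0.64), *Slc27a4* (0.64), *Acsl5* (0.22) and *Dgat2* (0.28), and for HFD VSG against LFD sham in *Cd36* (0.93), *Acsl5* (0.85) and *Dgat2* (0.75). Many smaller ratios changed sign too. Of all 60 ratios, 35 did so in at least 1 setting, 15 with the markers, 15 with immune-estimated and 7 with the study's free RNA fractions, 9 at 10% mitochondrial UMIs, 6 with each cell equal, 5 with equal bins and 2 to 5 in each of 7 other settings. The immune-estimated fraction of the villus-labelled HFD sham library rested on only 6 cells and 21 marker UMIs. In every library that fraction came from cells shallower than the enterocyte-like ones, so it may overstate their free RNA. With equal bins *Cd36* of HFD VSG against LFD sham reversed to 0.59, with 60 and 35 villus-labelled HFD VSG cells in bins 3 and 4. *Cd36* of villus-labelled HFD VSG against HFD sham ranged from -1.65 to -0.16 over the settings.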
